A study of Homo sapiens with 16 samples.

Results

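The genes described here are the enzymes that place methyl groups on lysine 9 of histone H3 (H3K9) and the proteins that work with them, measured as transcripts in HCT116 cells, a widely used line derived from human colon carcinoma. They are 9 genes: EHMT2, which encodes the methyltransferase G9a, its relative EHMT1 (GLP), the G9a and GLP partners WIZ and ZNF644, the methyltransferases SUV39H1, SUV39H2, SETDB1 and SETDB2, and ATF7IP, the partner of SETDB1. They were chosen by gene symbol from 63653 genes in the deposited files, and all 9 passed the filter on low values that left 12840 genes for testing. The series holds 16 RNA sequencing samples, read as 4 groups of 2 libraries with 2 sequencing runs each. One group received the small-molecule G9a inhibitor BIX 01294 at 0.5 µM for 72 h, and a second has its control cells. Another was transfected with 10 nM of an siRNA against G9a, using Lipofectamine RNAiMAX, and kept for 72 h, and the last has the control cells of that experiment. The sources used here do not say what either control received. All 4 groups are the same cell line, with no genetic change named in the labels. The submitters' design text speaks of biological and of technical replicates without saying which samples are which. The 2 numbers in each title were read here as library and sequencing run, so n = 2 rests on that reading. No label names separate cultures, and p-values measure the spread between these libraries, pooled over the 4 groups and moderated by the spread of other genes.

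H3K9 methylation marks silenced chromatin. G9a and GLP act as a heterodimer and place mainly mono- and dimethylation in gene-rich chromatin, and the zinc finger proteins WIZ and ZNF644 bind this pair and bring it to chromatin. SUV39H1 and SUV39H2 place trimethylation in pericentromeric heterochromatin, and SETDB1, which ATF7IP protects from degradation and keeps in the nucleus, places it at retroelements and other repeats. Chemical inhibitors of G9a act on the protein, whereas an siRNA acts on the transcript, and the measurements here are of transcripts only.

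The 9 genes lie at separate places in the genome. In the hg19 coordinates of the files, EHMT2 spans chr6:31847536-31865464 in the major histocompatibility region and EHMT1 spans chr9:140513444-140764468. WIZ lies at chr19:15532319-15560762, ZNF644 at chr1:91380859-91487829 and SETDB1 at chr1:150898739-150937213. SUV39H1 lies at chrX:48553945-48567403 and SUV39H2 at chr10:14920819-14946314. SETDB2 lies at chr13:50018429-50069138 and ATF7IP at chr12:14518610-14651697. Each value below is an estimate for the whole gene, not for an exon or isoform.

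Promoter sequence is shown for 3 members: EHMT2, the gene targeted by the siRNA, and EHMT1 and ATF7IP, the members called lower in the inhibitor libraries than in their own controls. Each is the stretch from 250 to 51 bases before the first start that RefSeq lists for the gene (build GRCh38.p14), written on the strand of the gene, 5′ to 3′. Capitals mark matches on either strand to GGGCGG, the core of a GC box, to CCAAT, or to CACGTG, an E-box. The windows are chr6:31897749-31897948 (minus strand) for EHMT2, chr9:137618755-137618954 (plus strand) for EHMT1 and chr12:14365432-14365631 (plus strand) for ATF7IP.
EHMT2: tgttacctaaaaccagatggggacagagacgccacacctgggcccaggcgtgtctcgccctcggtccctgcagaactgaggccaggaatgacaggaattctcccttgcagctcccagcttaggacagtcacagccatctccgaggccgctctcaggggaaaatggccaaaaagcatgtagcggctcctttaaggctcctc
EHMT1: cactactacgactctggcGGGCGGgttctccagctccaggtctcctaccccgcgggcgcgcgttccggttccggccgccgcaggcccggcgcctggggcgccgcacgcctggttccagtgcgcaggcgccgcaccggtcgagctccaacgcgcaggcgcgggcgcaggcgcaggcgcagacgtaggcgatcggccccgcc
ATF7IP: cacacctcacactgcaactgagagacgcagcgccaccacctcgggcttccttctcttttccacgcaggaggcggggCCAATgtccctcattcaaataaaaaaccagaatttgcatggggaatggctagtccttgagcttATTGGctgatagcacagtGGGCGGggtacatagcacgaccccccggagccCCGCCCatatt
The EHMT2 window held none of the 3 motifs and 7 CpG dinucleotides. The EHMT1 window held 1 GGGCGG and 33 CpG, against a median of 8 CpG over 35116 promoter windows of the same length. The ATF7IP window held 2 GGGCGG, 2 CCAAT and 9 CpG. RefSeq lists 6 starts for ATF7IP, and the windows of starts 2 to 6 held 0 GGGCGG, 0 or 1 CCAAT and 0 to 2 CpG. Which start these cells use was not tested. Of all windows, 35% held GGGCGG, 27.4% held CCAAT and 4.51% held CACGTG. These matches describe the letters of the windows, and no binding was measured.

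Levels below are FPKM (fragments per kilobase of transcript, relative to all mapped fragments) after the libraries were scaled to each other, so they can be compared between libraries. Comparison between genes rests on the division by transcript length in FPKM, whose settings were not given. The inhibitor controls were set off from the other 6 libraries. They correlated with each other at r = 0.993 across genes and with the other 6 at 0.957 to 0.974, while the other 6 correlated among themselves at 0.985 to 0.995. Each inhibitor result is therefore also given against the siRNA controls, which also serve the siRNA comparison. Depth implied by the files' confidence intervals was 2.023 to 6.937 per run in units of 1000000 fragments, lowest in siRNA control 2 and inhibitor control 2. The ribosomal RNA RNA28S5 was listed at 40.9 to 210.0 FPKM in the inhibitor controls, at 1050 to 2360 in the inhibitor libraries and at 5170 to 18900 in the siRNA and siRNA control libraries, and the part of this difference in the results was not tested. The epithelial markers EPCAM (73.4 to 95.2 FPKM) and KRT8, KRT18 and KRT19 (149 to 257 FPKM) were high in every library, but CDH1, which encodes E-cadherin, was at 0.623 to 2.01 FPKM. The sum of 7 fibroblast markers was 2.65 to 3.76 FPKM in the inhibitor controls, 1.98 to 2.42 with inhibitor, 2.0 to 2.12 in the siRNA controls and 1.75 to 2.81 with siRNA. Of these markers LUM was at 0 in all 8 libraries, DCN in 7 and COL1A2 in 6. The others were above 0 in every library. COL1A1 was at 0.729 to 2.07 FPKM, PDGFRB at 0.385 to 1.83, THY1 at 0.117 to 0.309 and COL3A1 at 0.0112 to 0.124. The labels' growth protocol also speaks of a fibroblast line, and its part here was not tested. The leukocyte gene PTPRC and the endothelial gene CDH5 did not exceed 0.0434 FPKM, and PECAM1 was not analysed here.

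EHMT2 was the member that moved most, and it fell in the siRNA libraries. Its level was 4.677 and 4.536 FPKM in the 2 siRNA libraries, 15.92 and 17.76 in the siRNA controls, 19.66 and 18.93 with inhibitor, and 24.71 and 20.98 in the inhibitor controls. The siRNA libraries lay far below every other library, and the 4 groups did not overlap. The siRNA mean was 27.4% of that of its controls. On the log2(FPKM + 1) scale on which all differences were tested, EHMT2 fell by 1.67 with siRNA (standard error, SE, 0.09, 95% interval -1.88 to -1.46, limma, Benjamini-Hochberg adjusted p = 0.00026, n = 2 libraries per group). By p this was the top-ranked of the 12840 genes, and by fold change EHMT2 was the 5th lowest. The transcript was still measured in the siRNA libraries, with about 146 and 76 implied fragments over both runs of each. In bulk RNA, fewer cells holding the transcript and less transcript per cell cannot be told apart.

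With inhibitor, EHMT2 stood at 84.5% of its own control mean and at 115% of the siRNA control mean. The difference from its own controls was -0.23 ± 0.09 (log2, SE, interval -0.44 to -0.02), and it did not pass the threshold (limma, adjusted p = 0.0829). Without inhibitor control 2 it was -0.35 and passed (adjusted p = 0.0359), with adjusted p from 0.0359 to 0.419 over 19 alternatives. Against the siRNA controls it was 0.19 ± 0.09 (interval -0.02 to 0.40, adjusted p = 0.44). Between the 2 treated groups EHMT2 was 1.86 ± 0.09 higher with inhibitor than with siRNA (limma, adjusted p = 0.000101), the largest increase and the smallest p of all genes tested. The effects of the 2 treatments, each against its own control, differed by 1.44 ± 0.13 (adjusted p = 0.000761). The siRNA result kept its direction and its call in all 19 alternative settings, with adjusted p from 3.15e-06 to 0.049.

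**Figure D1:**
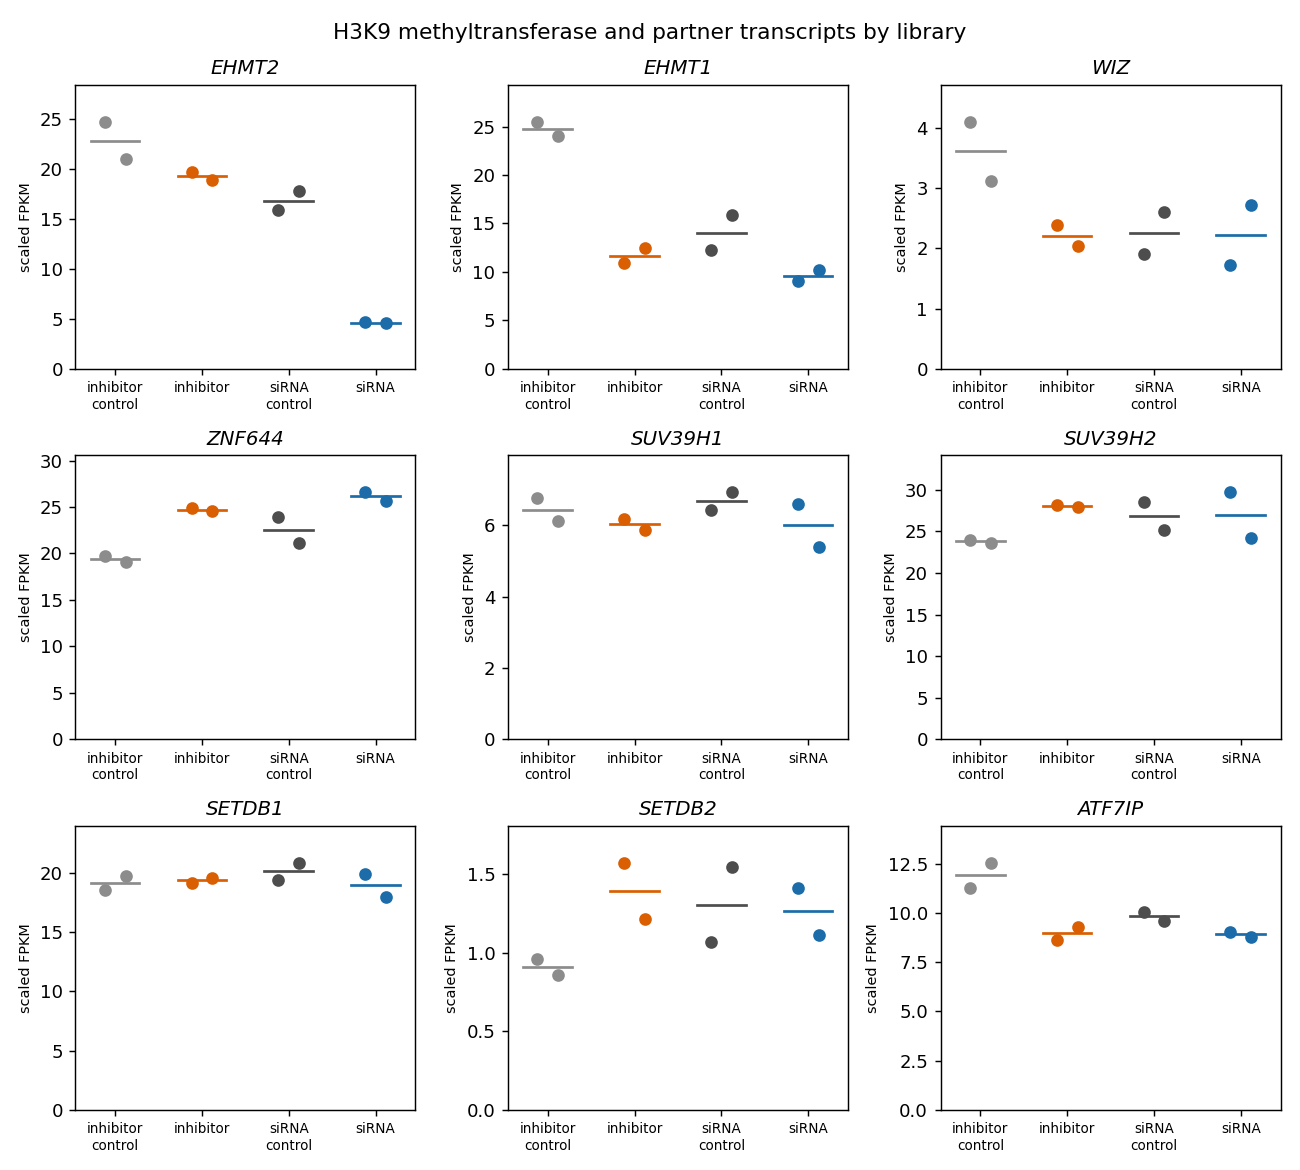
Level of each of the 9 members in each library, in scaled FPKM on axes that start at 0. Points are the 2 libraries of a group and lines are group means. EHMT2 sits at 4.536 to 4.677 in the siRNA libraries and at 15.92 or more elsewhere, EHMT1 sits at 24.01 or more only in the inhibitor controls, and SETDB1 spans 17.99 to 20.84 over all 8 libraries.

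EHMT1, the other subunit of the G9a and GLP pair, was highest in the inhibitor controls and lower in every other group. Its level was 25.48 and 24.01 FPKM in the inhibitor controls, 10.88 and 12.43 with inhibitor, 12.22 and 15.84 in the siRNA controls, and 9.082 and 10.15 with siRNA. The inhibitor controls lay above all other libraries, and the inhibitor and siRNA control libraries overlapped. With inhibitor the mean was 47.1% of that of the inhibitor controls, and EHMT1 fell by 1.03 on the log2 scale (SE 0.12, interval -1.30 to -0.76, limma, adjusted p = 0.000344). Against the siRNA controls the same libraries stood at 83.1%, a log2 difference of -0.24 ± 0.12 (interval -0.51 to 0.03) that did not pass (adjusted p = 0.446). The siRNA controls were themselves below the inhibitor controls, with a log2 difference of -0.79 ± 0.12 (adjusted p = 0.00108).

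With siRNA, EHMT1 stood at 68.5% of its control mean, and both siRNA libraries lay below both controls. The log2 difference of -0.49 ± 0.12 (interval -0.76 to -0.22) did not pass the threshold over all genes (limma, adjusted p = 0.0677). It passed without siRNA control 1 (-0.67, adjusted p = 0.0285) and with FPKM as deposited (-0.54, adjusted p = 0.0486), with adjusted p from 0.0285 to 0.339 over 19 alternatives. The EHMT1 effects of the 2 treatments differed by -0.53 ± 0.17 (adjusted p = 0.0722), and by -0.71 without siRNA control 2 (adjusted p = 0.0274). EHMT1 was also less precisely measured than EHMT2, with 74 to 582 implied fragments per library and runs of 1 library up to 26.4% apart.

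The balance of the pair was read from the EHMT2 to EHMT1 ratio, in which the scaling of a library cancels. It was 0.97 and 0.874 in the inhibitor controls, 1.81 and 1.52 with inhibitor, 1.3 and 1.12 in the siRNA controls, and 0.515 and 0.447 with siRNA. No group overlapped another: EHMT2 exceeded EHMT1 in the siRNA controls and the inhibitor libraries, and was below it in the siRNA libraries and the inhibitor controls. With 2 libraries against 2 an exact two-sided permutation test of the siRNA ratios against their controls cannot go below p = 0.333, the value it gave. Summed FPKM of the 6 methyltransferases was 100 and 95.4 in the inhibitor controls, 85.6 and 85.9 with inhibitor, 83.6 and 88.1 in the siRNA controls, and 71.4 and 63.4 with siRNA. The EHMT2 share of that sum was 19.1% to 24.6% in the 6 libraries without siRNA against G9a and 6.55% and 7.15% in the 2 with it. SUV39H2 held the largest share in all 6 libraries outside the inhibitor controls, 28.6% to 34.1% without siRNA against G9a and 41.6% and 38.2% with it. The SUV39H2 mean with siRNA was 100% of that of the siRNA controls, while the sum was lower.

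**Figure D2:**
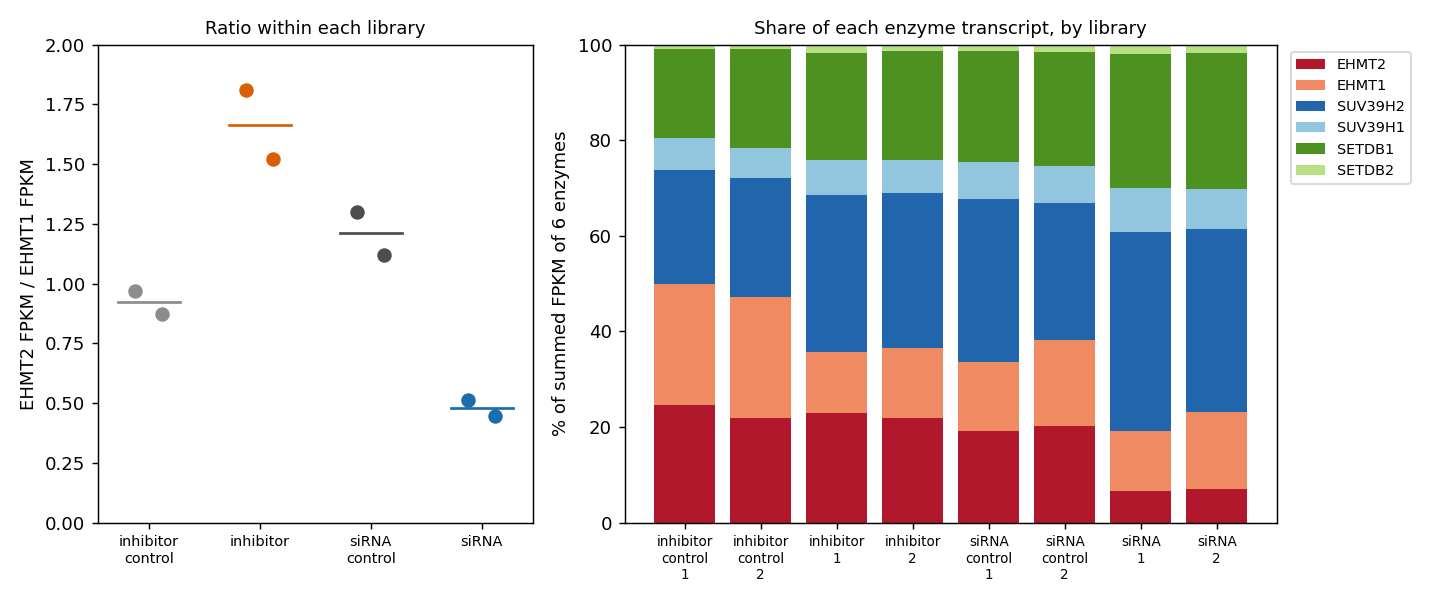
Left, EHMT2 FPKM divided by EHMT1 FPKM in each library, with points for libraries and lines for group means. Right, each enzyme's share (%) of the summed FPKM of the 6 methyltransferases in each library, in which EHMT2 drops to 6.55% and 7.15% in the siRNA libraries and EHMT1 takes over 25% only in the inhibitor controls.

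For the 2 zinc finger partners of G9a and GLP the inhibitor controls lay at opposite ends, and a difference between the 2 genes was not tested. ZNF644 measured 19.7 and 19.05 FPKM in the inhibitor controls, 24.88 and 24.57 with inhibitor, 23.96 and 21.15 in the siRNA controls, and 26.57 and 25.7 with siRNA. The inhibitor controls were the lowest pair and the siRNA libraries the highest, with no overlap between groups. ZNF644 rose by 0.34 ± 0.07 (log2) with inhibitor against its own controls (limma, adjusted p = 0.00626), though not with FPKM as deposited (0.32, adjusted p = 0.0665), the highest over 19 alternatives, of which the lowest was 0.00355. Measured from the siRNA controls, the difference was 0.13 ± 0.07 with inhibitor (adjusted p = 0.484) and 0.21 ± 0.07 with siRNA (interval 0.05 to 0.37, adjusted p = 0.15).

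WIZ, which bridges G9a and GLP to CtBP corepressors, was low throughout. Its level was 4.099 and 3.121 FPKM in the inhibitor controls, 2.385 and 2.034 with inhibitor, 1.904 and 2.603 in the siRNA controls, and 1.724 and 2.725 with siRNA. The inhibitor controls were again the highest pair, and the other 3 groups overlapped. The difference between inhibitor and its own control was -0.52 ± 0.19 (log2, interval -0.94 to -0.10) and did not pass (limma, adjusted p = 0.057). It passed with FPKM as deposited (adjusted p = 0.0308), in a fit of those 2 groups alone (0.0301) and without siRNA library 1 or 2 (0.0371 and 0.0387), with adjusted p from 0.0301 to 0.265 over 19 alternatives. Against the siRNA controls the difference was -0.01 ± 0.19 with inhibitor (adjusted p = 0.985) and -0.02 ± 0.19 with siRNA (interval -0.44 to 0.40, adjusted p = 0.962). In siRNA control 2, which had 37 implied fragments of WIZ, the confidence interval of the first run reached 52.6% of the value above it.

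SUV39H1 and SUV39H2, the trimethylating enzymes of pericentromeric chromatin, were expressed at unequal levels and did not pass the test in any of the 6 contrasts. SUV39H1 measured 6.767 and 6.111 FPKM in the inhibitor controls, 6.189 and 5.866 with inhibitor, 6.423 and 6.923 in the siRNA controls, and 6.598 and 5.401 with siRNA. Each treated pair overlapped its control pair, and the log2 differences were -0.08 ± 0.11 with inhibitor (interval -0.33 to 0.17) and -0.14 ± 0.11 with siRNA (interval -0.38 to 0.11). Inhibitor against siRNA control gave -0.13 ± 0.11 for SUV39H1 (adjusted p = 0.667). SUV39H2 measured 23.92 and 23.65 FPKM in the inhibitor controls, 28.13 and 27.88 with inhibitor, 28.51 and 25.19 in the siRNA controls, and 29.68 and 24.25 with siRNA. Here the inhibitor libraries lay above their own controls and within the range of the siRNA controls.

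The SUV39H2 difference with inhibitor was 0.23 ± 0.095 (log2, SE, interval 0.01 to 0.44, limma, adjusted p = 0.0927). It passed in a fit of those 2 groups alone (adjusted p = 0.0205) and without siRNA library 1 or 2 (0.0406 and 0.0409), with adjusted p from 0.0205 to 0.281 over 19 alternatives. With siRNA it was 0.002 ± 0.095 (interval -0.21 to 0.22), and for inhibitor against siRNA control it was 0.06 ± 0.095 (adjusted p = 0.835). SUV39H2 overlaps DCLRE1C, a DNA repair gene on the opposite strand, over 6957 bases, and the sources used here do not say whether the authors' counting used strand. DCLRE1C averaged 7.41 FPKM and differed by 0.28 with inhibitor against its own controls (limma, adjusted p = 0.0386), in the same direction. Against the siRNA controls DCLRE1C differed by 0.05 (limma, adjusted p = 0.861), and the siRNA controls stood 0.23 above the inhibitor controls. The ratio of SUV39H2 to SUV39H1 was between 3.54 and 4.75 in all libraries.

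SETDB1 was the steadiest member. It measured 18.55 and 19.78 FPKM in the inhibitor controls, 19.18 and 19.54 with inhibitor, 19.42 and 20.84 in the siRNA controls, and 19.92 and 17.99 with siRNA. All groups overlapped at least 1 other, and the highest library was 1.16 times the lowest. The log2 difference was 0.01 ± 0.075 (SE) with inhibitor (interval -0.15 to 0.18) and -0.08 ± 0.075 with siRNA (interval -0.25 to 0.09). For inhibitor against siRNA control it was -0.05 ± 0.075 (adjusted p = 0.815). SETDB1 shares 4155 bases with CERS2 on the opposite strand, a ceramide synthase gene at 84.6 FPKM. CERS2 differed by -0.02 with each treatment against its own control. For inhibitor against siRNA control it differed by -0.12, and for siRNA control against inhibitor control by 0.10.

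SETDB2 was the lowest member, at the 4.38 percentile of tested genes. Its FPKM was 0.9616 and 0.8576 in the inhibitor controls, 1.573 and 1.215 with inhibitor, 1.067 and 1.547 in the siRNA controls, and 1.413 and 1.117 with siRNA. The inhibitor controls were the lowest pair and the other groups overlapped. The inhibitor difference was 0.32 ± 0.16 (log2, interval -0.04 to 0.69, limma, adjusted p = 0.148) against its own controls and 0.06 ± 0.16 against the siRNA controls (adjusted p = 0.911). With siRNA the difference was -0.02 ± 0.16 (interval -0.38 to 0.34). Inhibitor control 2 held about 12 implied fragments of SETDB2, the fewest of any library, and the confidence interval of its first run reached 111% of the value above it.

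ATF7IP, the cofactor that stabilises SETDB1 protein, was the third member called with inhibitor. Its level was 11.28 and 12.53 FPKM in the inhibitor controls, 8.63 and 9.294 with inhibitor, 10.03 and 9.599 in the siRNA controls, and 9.048 and 8.781 with siRNA. The inhibitor controls were highest and both treated pairs lay below both of the siRNA controls. ATF7IP fell with inhibitor, with a log2 difference of -0.37 ± 0.08 against its own controls (limma, adjusted p = 0.00829). The call was lost with run 1 alone (adjusted p = 0.0509), with run 2 alone (0.0775), without inhibitor control 2 (0.0593) and without inhibitor library 1 (0.0644), and the lowest adjusted p over 19 alternatives was 0.00819. Against the siRNA controls the differences were -0.12 ± 0.08 with inhibitor (adjusted p = 0.581) and -0.125 ± 0.084 with siRNA (adjusted p = 0.433). The ratio of ATF7IP to SETDB1 was 0.608 and 0.634 in the inhibitor controls and between 0.45 and 0.517 in the other 6 libraries.

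Counted over the 9 members, inhibitor against its own controls called 3, with EHMT1 and ATF7IP lower and ZNF644 higher, where 36.5% of all genes were called. Set against the siRNA controls, inhibitor libraries called 0 members, and 0 had an unadjusted p under 0.05 (limma), where 0.0545% of all genes were called. The siRNA comparison called 1 member, EHMT2, where 2.12% of genes (272) were called. That total was 8 without siRNA control 2 and 427 without siRNA control 1. The 2 control groups differed in 4 members, with EHMT2, EHMT1 and ATF7IP lower and ZNF644 higher in the siRNA controls, where 38.3% of genes were called. Of these, EHMT2 (-0.42 ± 0.09, adjusted p = 0.00725) lost the call without inhibitor control 1 (0.0522, lowest over alternatives 0.00343), and ATF7IP (-0.25, 0.0407) and ZNF644 (0.21, 0.0469) each lost it in 13 of 19 alternatives. The 2 treated groups differed in EHMT2 alone, where 1.69% of genes were called, and the 2 treatment effects differed in EHMT2 alone, where 11.9% were called. The count of 3 became 5 without siRNA library 1 or 2 and in a fit of the 2 groups alone, and the count of 4 became 2 in 9 of 19 alternatives. The direction of EHMT1, ATF7IP and ZNF644 with inhibitor was also that of the siRNA controls against the inhibitor controls, and both contrasts share the inhibitor control libraries.

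**Figure D3:**
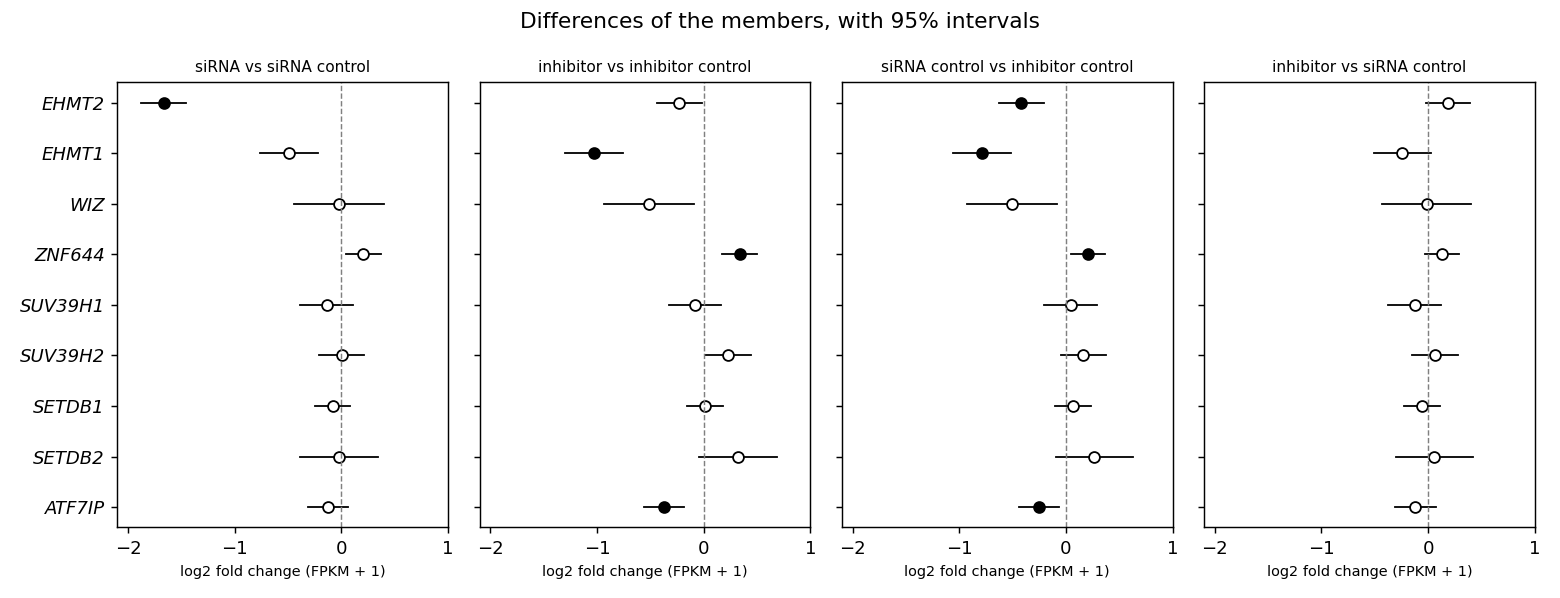
Log2 fold change of each member, on the FPKM + 1 scale, in 4 comparisons. Points are estimates, bars are 95% intervals and filled points passed the adjusted threshold. EHMT2 stands at -1.67 with siRNA, EHMT1 stands at -1.03 with inhibitor and -0.79 between the controls, and no filled point appears for inhibitor against siRNA control.

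The other genes of H3K9 methylation were read from a list of 40 further genes, of which 38 were tested. They were sorted broadly as writers, readers, erasers and corepressors. Those listed as writers were PRDM2, MECOM, PRDM16, SETMAR, ASH1L and ATF7IP2, whose activity on H3K9 was not measured. RIOX1 was not matched by its symbol, and CDYL2 was under the filter. With inhibitor against its own controls 15 were lower, 4 were higher and 19 were not called (50% called, against 36.5% of all genes), with a median log2 difference of -0.13 against 0.01 over all genes. The count of 19 became 10 without inhibitor library 2. Genes listed as readers, silencing complexes included, held most of these calls: 7 of 12 were lower and 3 higher. UHRF1, which binds methylated H3K9 and hemimethylated DNA, went from 38.3 ± 3.85 to 20.4 ± 0.572 FPKM (SD, n = 2), a log2 difference of -0.87 (limma, adjusted p = 0.000217). CBX5, the heterochromatin protein HP1 alpha, went from 19.1 ± 2.48 to 9.22 ± 0.376 FPKM (-0.97, adjusted p = 0.000263). ZNF217, a zinc finger corepressor, went from 8.65 ± 0.421 to 3.45 ± 0.031 FPKM (-1.12, adjusted p = 0.000265). Of 11 erasers 4 were lower and 1 higher, of 9 corepressors 4 were lower, and of 6 writers 0 were called with 2 at an unadjusted p under 0.05. KDM1A, the eraser that was higher, carried the authors' program's mark for a failed estimate in 3 of 16 runs.

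Against the siRNA controls the same inhibitor libraries called 0 of the 38 genes, where 0.0545% of all genes were called. An unadjusted p under 0.05 (limma) was found for 2 of the 38 and for 1597 of all 12840 genes. The median was -0.02, against -0.01 over all genes. UHRF1, CBX5 and ZNF217 differed there by -0.07, -0.08 and -0.09. Between the control groups 17 were lower and 5 higher in the siRNA controls (57.9% called, against 38.3% of all genes, median -0.14), and the count of 22 became 14 without inhibitor control 2. The smallest p values there were for CBX1, the heterochromatin protein HP1 beta (-0.69, adjusted p = 4.04e-05), MPHOSPH8, the H3K9 methylation reader of the HUSH silencing complex (-1.26, adjusted p = 0.000193), and UHRF1 (-0.80, adjusted p = 0.000275).

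With siRNA 1 of the 38 genes was called (2.63%, against 2.12% of all genes). UHRF1 was at 21.5 ± 0.961 FPKM in the siRNA controls and 15.1 ± 1.6 with siRNA (SD, n = 2), a log2 difference of -0.48 ± 0.09 (SE, adjusted p = 0.0408, limma). In 12 of 19 alternatives no gene of the list was called. The inhibitor and siRNA libraries differed in 1 gene of the list (2.63%, against 1.69% of all genes). It was CBX1, 0.37 higher with inhibitor (limma, adjusted p = 0.0221), and in 7 of 19 alternatives no gene of the list was called. The difference of the 2 treatment effects uses both control groups, which themselves differed. In the siRNA controls against the inhibitor controls, CBX5, MPHOSPH8 and TRIM28 differed by -0.88, -1.26 and -0.36. With inhibitor against the siRNA controls they differed by -0.08, 0.15 and -0.02. The 2 effects, each against its own control, differed in 7 genes (18.4%, against 11.9% of all genes), all more negative with inhibitor. They were led by CBX5 (-0.75, limma, adjusted p = 0.0156), MPHOSPH8 (-0.92, 0.0166) and TRIM28, the corepressor that recruits SETDB1 (-0.32, 0.018). That count was 0 to 9 on leaving out 1 library, 0 being without inhibitor library 2.

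**Figure D4:**
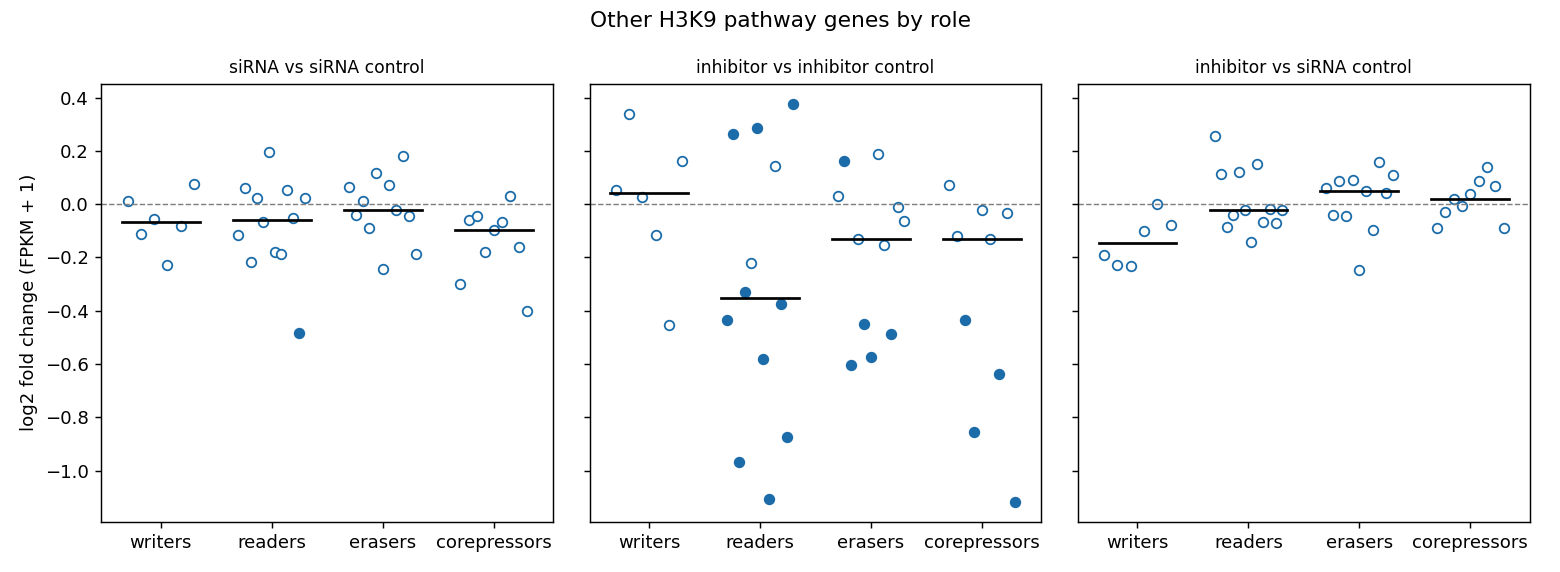
Log2 fold change, on the FPKM + 1 scale, of the 38 other H3K9 genes tested, by role, in 3 comparisons. Points are genes, filled where called, and lines are medians of a role. Filled points number 19 for inhibitor against its own control, 1 for siRNA and 0 for inhibitor against siRNA control. Of all genes 36.5%, 2.12% and 0.0545% were called in these comparisons. Readers are shown together with silencing complexes.

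The genes whose profile over the 8 libraries was most like that of each G9a and GLP subunit were ranked by the root mean square difference of centred log2(FPKM + 1) values. Among the nearest to EHMT1 were GEMIN4 (0.06) and C10orf2 (0.07). GEMIN4 ran from 32.3 and 28.9 FPKM in the inhibitor controls to 11 and 11.8 with siRNA, with 14.6 and 14.8 with inhibitor and 14.8 and 18.4 in the siRNA controls. For EHMT2 the nearest genes were much farther away: CTD-2651B20.6 (0.36), SNHG9 (0.37) and TPM2, a tropomyosin (0.39). TPM2 measured 170 and 174 FPKM in the inhibitor controls, 120 and 127 with inhibitor, 119 and 122 in the siRNA controls, and 65.4 and 70.0 with siRNA.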

How the data were processed

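Each sample's file holds gene-level FPKM that the authors deposited. The submitters' processing notes name STAR 2.3.0e, SAMtools 0.1.19, Cufflinks and the build hg19. Its options, the annotation and the use of strand were not given in the sources used here. Per the labels' protocols, the kit was a stranded one for total RNA. The 2 samples read as runs of a library were averaged and counted once. Entries with the same identifier were summed, and entries of members on alternate sequences were all 0. Genes were kept on primary chromosomes where mean FPKM reached 1 and the locus 300 bases, and 1 gene marked as unreliable in all 16 runs was left out. Scaling used median-of-ratios factors, and log2(FPKM + 1) was tested with limma 3.58.1 in R 4.3.3 (moderated, mean-variance trend, two-sided). All 4 groups were in 1 fit with 4 residual degrees of freedom, to which moderation added 5.07 prior degrees of freedom estimated from all genes tested. "Called" means a Benjamini-Hochberg adjusted p under 0.05 over all 12840 genes. The log2(FPKM + 1) scale understates the change of low genes such as WIZ and SETDB2. It also understates the fall of EHMT2 with siRNA, which was -1.67 on this scale and -1.85 with a pseudocount of 0.1. The fit was also run on simulated data with normal noise. Changes were added in the siRNA group only and were larger than most member differences, so recovery of small differences was not tested. Implied fragments were estimated from the files' confidence intervals and cover counting error only.

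Named genes are all 9 members, the 3 called genes of smallest p among the other H3K9 genes in each contrast, and the 3 nearest profiles of EHMT2 and of EHMT1, of which 1 is not reported here. Other genes are named as overlapping neighbours, as the listed writers, for a mark in the files, as a ribosomal RNA or as markers. The 9 members and the lists were chosen with earlier results of these data known. Alternatives covered the pseudocount, filters, scaling, single runs, alternate entries, moderation, the groups fitted, a replicate block and leaving out each library. Promoter sequences come from RefSeq, and siRNA sequences were not used here.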

Additional observations from a re-analysis of the deposited data

Results flagged for a closer look

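EHMT2 is listed because the same contrast, treated against own control, gave different effects for the 2 treatments. The difference of effects was 1.44 ± 0.13 (log2, SE, limma, adjusted p = 0.000761): EHMT2 fell by 1.67 with siRNA and differed by -0.23 with inhibitor. Both siRNA libraries lay below both of their controls, and both inhibitor libraries lay below both of theirs. The 2 control groups differed in EHMT2 too, by -0.42, and the difference of effects uses both.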

How the results depend on the processing

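The EHMT2 results with siRNA (-1.85 with a pseudocount of 0.1 to -1.51 with run 1 alone), between treated groups and for the difference of effects, and the EHMT1 result with inhibitor, kept their direction and call in every alternative. Over all members, comparisons and alternatives, 923 log2 values kept direction and side of the threshold, 32 lost a call, 14 gained one and 48 changed sign, none of these 48 from a called value. The cause of each change was not tested.

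Not all moves of the counts are listed here. Among smaller moves, inhibitor against its own controls called 2 members in place of 3 with run 1. Between controls, short genes kept and quantile normalization each gave 3 members in place of 4. The 19 other H3K9 genes called with inhibitor became 14 without the filter and with run 1. Larger moves in the counts of called members were as follows. Between controls there were 2 in place of 4 without the low-value filter, with run 1, with run 2 and with only the groups compared, with siRNA 2 in place of 1 with FPKM as deposited, and with inhibitor 5 in place of 3 with only the groups compared. Leaving out 1 library gave 2 to 5 with inhibitor, 1 to 2 with siRNA, 2 to 3 between controls and 1 to 2 for the difference of effects. Counts among the other H3K9 genes became 0 with siRNA without the filter, with short genes, with run 1, with run 2, with the replicate block and with only the groups compared. They became 14 between controls without the filter and with run 1. Inhibitor against siRNA gave 0 without the filter and with either run alone, and 2 with FPKM as deposited. The difference of effects gave 0 without the filter, 3 with FPKM as deposited, 1 with run 1 and 4 with run 2. Leaving out 1 library gave 10 to 19 with inhibitor, 0 to 1 with siRNA, 14 to 23 between controls, 0 to 1 for inhibitor against siRNA and 0 to 9 for the difference.

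Counts over all genes ranged from 2673 to 4867 with inhibitor, 5 to 427 with siRNA, 3175 to 4915 between controls, 0 to 44 for inhibitor against siRNA control, 6 to 597 for inhibitor against siRNA and 239 to 1631 for the difference. The siRNA count was 8 without siRNA control 2 and 427 without siRNA control 1. Replicate numbers were not found to pair the samples (correlations of deviations -0.0939 to 0.0428). The replicate block moved the count of called genes from 272 to 69 with siRNA and from 217 to 53 for inhibitor against siRNA, and removed the ATF7IP call between controls (adjusted p = 0.0581).

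Signs changed in these uncalled log2 values. With siRNA, SUV39H2 was -0.007 without the filter, -0.054 as deposited and -0.013 with run 2, SETDB2 was 0.007 with quantile normalization and 0.03 with run 2, and WIZ was 0.009 with run 1. With inhibitor, SUV39H1 was 0.008 with quantile normalization and SETDB1 was -0.058 with run 1. Between controls, as deposited, SUV39H1 was -0.073 and SETDB1 was -0.062. For inhibitor against siRNA control, WIZ was 0.071 as deposited, 0.008 with quantile normalization and 0.072 with run 1, SETDB1 was 0.063 as deposited and SETDB2 was -0.028 with run 1. For inhibitor against siRNA, ZNF644 was 0.095 as deposited, ATF7IP was -0.015 with quantile normalization and -0.104 with run 1, SETDB1 was -0.048 with run 1, and with run 2 WIZ was -0.042 and SUV39H1 was -0.069. The SUV39H1 difference of effects was -0.028 with run 2.

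Leaving out 1 library at a time also changed signs. With siRNA the ranges were -0.246 to 0.205 (WIZ), -0.138 to 0.147 (SUV39H2) and -0.171 to 0.129 (SETDB2), and with inhibitor -0.034 to 0.054 (SETDB1). For SUV39H1 they were -0.026 to 0.101 between controls and -0.073 to 0.178 for the difference. For inhibitor against siRNA control they were -0.169 to 0.141 (WIZ), -0.026 to 0.148 (SUV39H2) and -0.093 to 0.208 (SETDB2). For inhibitor against siRNA they were -0.219 to 0.233 (WIZ), -0.116 to 0.133 (SUV39H1), -0.084 to 0.199 (SUV39H2), -0.043 to 0.099 (SETDB1), -0.028 to 0.187 (SETDB2) and -0.042 to 0.055 (ATF7IP).

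The low genes WIZ and SETDB2 rest on few fragments, 37 to 373 and 12 to 90 per library.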
